A study of Mus musculus with 26 samples.

Results

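Mouse embryonic fibroblasts given Pou5f1 (Oct4), Sox2 and Klf4 by retrovirus, a factor set called OSK, were compared between day 3 and day 1 of reprogramming. The genes compared were the 13208 of 18198 in the deposited table (72.6%) that reached a value of 10 in 2 or more of the 4 libraries, and 13137 of them had a gene symbol. Of these, 251 met the rule only through day 1 and 287 only through day 3. At the edge of the rule, 197 genes had a second-highest value of 10 and were kept, and 219 had one of 9 and were not. The fibroblasts were infected within 2 passages with virus made in PlatE packaging cells and then kept in iCD1 medium or in serum-based ESC medium with LIF, and the labels do not say which medium was used at which day. The day 0 libraries of the course already held high values of Pou5f1, 11662 and 8974, against 2 and 0 in uninfected fibroblasts (MEF). Set beside the OSK step were the OSK libraries of days 0 and 7, those given Jun as well (OSK-cJun) at day 1 and day 3, MEF kept in serum, and ESC kept in N2B27 with 2i and LIF. Values of induced pluripotent cells (iPSC), OSK day 5 and OSK-cJun days 0 and 7 appear in figures or for single genes. These libraries, and those of OSK with a hairpin against Sap30 at day 7 (OSK-shSap30), also entered the fit that set the spread. Every group had n = 2 libraries, and a strain is labelled for ESC alone. Whether replicates came from separate cultures is not stated, so p-values measure a spread between libraries that may be technical.

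Pou5f1, Sox2 and Klf4 are transcription factors that together can turn fibroblasts into pluripotent stem cells. Along that course fibroblasts are known to lose contractile and matrix genes and to gain epithelial genes before the resident pluripotency network becomes active. Interferons are secreted signals of the antiviral response. Type I interferons bind the receptor pair Ifnar1 and Ifnar2 and act through a complex with Stat2 and Irf9 that binds the interferon-stimulated response element (ISRE), while interferon gamma binds Ifngr1 and Ifngr2 and acts at the gamma-activated site (GAS).

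Promoters of the 5 interferon or antigen presentation genes and of the 3 contractile genes that moved furthest, among those called with 1 promoter in the table, are shown first, because these classes rose and fell, respectively, from day 1 to day 3. Each runs from 250 bases before to 50 after the transcription start in RefSeq on GRCm38.p6, 5′ to 3′ along the gene's strand. They are Tgtp2 (chr11:49064163-49064462, minus strand), Tgtp1 (chr11:48992197-48992496, minus), Igtp (chr11:58199306-58199605, plus), Gbp2 (chr3:142620413-142620712, plus), Psmb8 (chr17:34197945-34198244, plus), Myl9 (chr2:156775214-156775513, plus), Tpm2 (chr4:43523505-43523804, minus) and Cnn2 (chr10:79988350-79988649, plus). Capitals mark matches to the ISRE core (GAAA, any 2 bases, GAAA) and to the GAS (TTCNNNGAA) in the interferon and antigen presentation genes, and to the CArG box, the site of serum response factor, in the contractile genes.
Tgtp2: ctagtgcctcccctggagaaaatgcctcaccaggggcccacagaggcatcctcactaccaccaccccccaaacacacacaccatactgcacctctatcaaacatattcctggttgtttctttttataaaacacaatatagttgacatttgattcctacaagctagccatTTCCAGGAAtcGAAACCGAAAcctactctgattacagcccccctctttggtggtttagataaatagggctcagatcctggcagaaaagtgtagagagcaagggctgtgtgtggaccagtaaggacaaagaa
Tgtp1: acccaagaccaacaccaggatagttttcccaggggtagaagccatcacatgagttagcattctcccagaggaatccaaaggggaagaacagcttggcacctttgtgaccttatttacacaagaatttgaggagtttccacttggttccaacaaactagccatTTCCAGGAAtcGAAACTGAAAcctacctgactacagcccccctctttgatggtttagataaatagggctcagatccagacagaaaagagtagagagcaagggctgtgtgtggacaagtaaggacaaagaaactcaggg
Igtp: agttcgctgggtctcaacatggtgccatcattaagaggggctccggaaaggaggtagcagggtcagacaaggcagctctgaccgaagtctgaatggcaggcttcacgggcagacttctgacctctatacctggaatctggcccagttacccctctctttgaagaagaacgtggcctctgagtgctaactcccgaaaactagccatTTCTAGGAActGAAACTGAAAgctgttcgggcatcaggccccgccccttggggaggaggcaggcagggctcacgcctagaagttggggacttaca
Gbp2: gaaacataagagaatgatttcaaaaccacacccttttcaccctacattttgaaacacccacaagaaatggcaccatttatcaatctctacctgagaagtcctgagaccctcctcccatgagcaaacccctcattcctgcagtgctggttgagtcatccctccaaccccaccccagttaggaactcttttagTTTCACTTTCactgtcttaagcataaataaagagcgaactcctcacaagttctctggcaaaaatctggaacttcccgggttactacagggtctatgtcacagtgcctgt
Psmb8: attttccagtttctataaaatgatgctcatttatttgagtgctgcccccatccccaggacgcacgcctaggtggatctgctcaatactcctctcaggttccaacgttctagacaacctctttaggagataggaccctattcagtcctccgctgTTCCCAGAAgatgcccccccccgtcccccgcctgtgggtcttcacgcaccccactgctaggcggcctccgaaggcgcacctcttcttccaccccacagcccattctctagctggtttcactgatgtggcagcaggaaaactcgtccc
Myl9: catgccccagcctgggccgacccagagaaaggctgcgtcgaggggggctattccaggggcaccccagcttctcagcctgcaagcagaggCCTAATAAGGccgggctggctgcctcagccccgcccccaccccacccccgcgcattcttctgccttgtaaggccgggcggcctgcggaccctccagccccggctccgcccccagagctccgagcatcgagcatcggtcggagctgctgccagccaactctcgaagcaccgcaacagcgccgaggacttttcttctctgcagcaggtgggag
Tpm2: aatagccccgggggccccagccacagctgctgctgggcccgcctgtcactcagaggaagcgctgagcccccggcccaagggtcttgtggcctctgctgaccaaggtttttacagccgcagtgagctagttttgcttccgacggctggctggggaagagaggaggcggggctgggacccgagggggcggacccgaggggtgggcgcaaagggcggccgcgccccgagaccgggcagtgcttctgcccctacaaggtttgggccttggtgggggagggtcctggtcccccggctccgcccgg
Cnn2: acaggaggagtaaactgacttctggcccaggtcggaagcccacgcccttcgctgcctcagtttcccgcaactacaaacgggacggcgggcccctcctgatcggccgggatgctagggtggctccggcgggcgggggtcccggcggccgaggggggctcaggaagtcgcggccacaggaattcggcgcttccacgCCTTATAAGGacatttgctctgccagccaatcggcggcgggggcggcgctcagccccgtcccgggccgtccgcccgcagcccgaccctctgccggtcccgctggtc
In Tgtp2, Tgtp1 and Igtp a GAS match began 81, 88 and 45 bases before the start, and 2 bases after its end an ISRE match began, 70, 77 and 34 bases before the start. The ISRE match of Gbp2 began 59 bases before the start and read on the other strand, and Psmb8 held a GAS match 97 bases before the start and no ISRE core. The CArG matches began 161 bases before the start in Myl9 and 56 bases before it in Cnn2, and Tpm2 held none. Both strands were searched over 32851 promoters of this length, of which 3.44% held an ISRE core, 8.3% a GAS and 1.63% a CArG box. In the 12895 promoters matched to compared genes these shares were 3.08%, 6.93% and 1.3%. Of the 526 genes called higher at day 3, 381 were matched to 510 promoters, and 12.5% of those held the ISRE core and 10.8% the GAS. For the genes called higher in the interferon and antigen presentation lists below, 51 of 66 were matched, and 27 of their 56 promoters (48.2%) held the ISRE core and 12 (21.4%) the GAS. Among the remaining genes called higher the shares were 8.15% and 9.47%, and among genes called lower 3.0% and 5.08%. The lists are not complete, so the remaining genes are not a set without interferon-induced members. Gbp2b, a relative of Gbp2, was among those with an ISRE core. A CArG box was held by 2.54% of the promoters of genes called lower, 2 of the 4 matched promoters of contractile genes called lower among them. For genes called higher that share was 1.76%. A match is a description of letters in this window and not a shown binding site.

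Between day 1 and day 3, interferon-induced genes rose by the largest folds, genes of the contractile and matrix apparatus of fibroblasts fell, and some pluripotency and epithelial genes rose. A gene was called when its Benjamini-Hochberg adjusted p from limma was below 0.05 and its log2 fold, on the mean of log2(value + 1), was at least 1. By that rule 972 of the 13208 genes (7.36%) were called, 526 higher at day 3 (3.98%) and 446 lower (3.38%). The median fold over all genes was -0.04. Large folds were mostly increases: 214 genes rose and 62 fell by a log2 fold of at least 3, and 56 rose and 3 fell by at least 5. In all 972 called genes the day 1 and day 3 libraries did not overlap, which was also the case for 54.8% of all genes compared. Of the called genes, 142 of those higher met the rule on low values only through day 3 and 70 of those lower only through day 1, so these could differ in 1 direction only.

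The values are a score that the authors normalised so that all libraries hold nearly the same set of sorted values, so sequencing depth is unknown and 10 genes in each library share the ceiling of 21544. Replicates correlated at 0.9354 (day 1) and 0.9463 (day 3) across genes, and libraries of different days at 0.8366 to 0.8757. The 2 libraries of day 1 did not contribute equally to the calls: replicate 1 lay above replicate 2 in 307 of 446 genes called lower (68.8%) and in 26.8% of those called higher, against 47.9% of all genes, so it lay farther from day 3 in both directions. Without day 1 replicate 1 the calls were 273 higher and 152 lower, and without day 1 replicate 2 they were 422 and 313. Without day 3 replicate 1 they were 335 and 249, and without day 3 replicate 2 they were 289 and 232. The 2 OSK day 5 libraries stood apart from each other (Pou5f1 at 656 and 21544) and served in the tests only to estimate the spread. In bulk RNA, fewer cells that express a gene and less of its RNA per cell cannot be told apart.

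**Figure D1:**
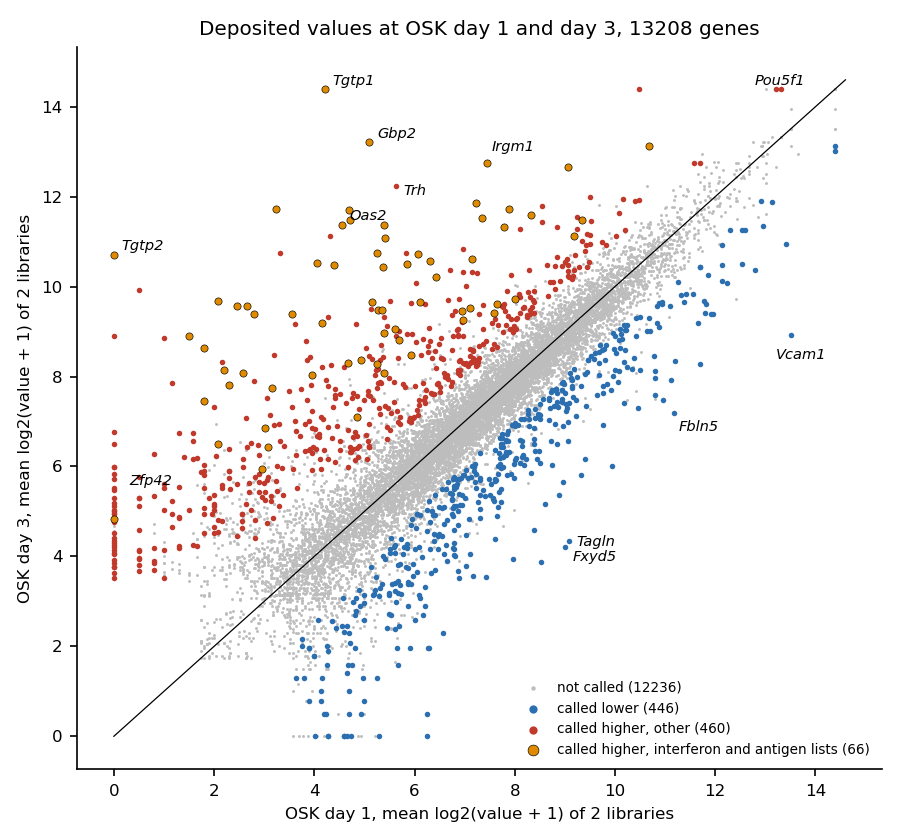
Mean log2(value + 1) of 2 libraries at OSK day 1 (horizontal) and day 3 (vertical) for each of 13208 genes, with the line of equal values. Orange points, the 66 genes called higher in the interferon and antigen presentation lists, make up most of the points farthest above the line, and blue points are the 446 genes called lower.

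In the list of interferon ligands and receptors, no ligand gene met the rule on low values, so none was tested, and no receptor gene was called. Of all genes 7.36% were called, so nothing is read from this zero in a list this small. The 5 tested members of that list, all receptor chains, had negative folds with a median of -0.29, the lowest -0.92 in Il10rb, a chain shared with interleukin receptors (limma adjusted p = 0.0533). Ifnar1, a chain of the type I receptor, stood at 517 and 541 on day 1 and at 494 and 435 on day 3 (fold -0.19, SE 0.15, adjusted p = 0.534). Ifngr1, a chain of the interferon gamma receptor, stood at 130 and 91 and then at 120 and 88, and the days overlapped. Ifng itself, which encodes interferon gamma, did not meet the rule on low values: it was listed at 0 in both day 1 libraries and stood at 12 and 9 on day 3. In OSK-cJun Ifng stood at 6 and 8 on day 1 and at 12 and 11 on day 3, and it was listed at 0 in MEF, ESC, iPSC and both OSK day 0 libraries. The type I gene Ifnb1 was not analysed here.

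Sensors and transducers of the response rose together: 11 of 15 tested were called higher and none lower, with a median fold of 3.35. Stat2, a transcription factor of type I signalling, stood at 182 and 143 on day 1 and at 3614 and 2409 on day 3. Both day 3 values lay far above both day 1 values, a log2 fold of 4.18 (SE 0.39, limma adjusted p = 3e-06). Irf9, the DNA-binding member of that complex, went from 115 and 129 to 757 and 656, a smaller rise of 2.52 (SE 0.28, adjusted p = 1.63e-05). The cytosolic RNA sensor genes Ddx58 (RIG-I), at 178 and 310 and then 3611 and 3154, and Ifih1 (MDA5), at 47 and 54 and then 477 and 425, rose by 3.84 (SE 0.31) and 3.14 (SE 0.29). Irf1, an activator of interferon-induced genes named here after its values were seen, rose from 36 and 45 to 1263 and 1500 (fold 5.06, SE 0.66, adjusted p = 0.000141). Members not called included genes of cytosolic DNA sensing: Cgas, the sensor, stood at 23 and 31 and then at 31 and 31. Tmem173 (STING), its adaptor, stood at 298 and 171 and then at 326 and 174. RNA levels do not show which sensors were active, and this was not tested. The remaining members not called were Trim25 (fold 0.78, below the size rule) and Tlr3 (fold 1.76, adjusted p = 0.287).

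Antiviral effector genes were called higher in 26 of 30 tested, with a median fold of 3.81, and none was called lower. Oas2, an enzyme that senses double-stranded RNA and triggers RNA decay, stood at 21 and 24 on day 1 and at 2711 and 2616 on day 3. The replicates lay close together within each day, and the rise of 6.83 (SE 0.24, limma adjusted p = 7.17e-12) had the smallest p of the list. Ifit1, an RNA-binding antiviral protein, rose from 5 and 7 to 674 and 658 (fold 6.59, SE 0.42, adjusted p = 6.63e-08). Parp14, an ADP-ribosyltransferase, rose from 21 and 19 to 1483 and 1390 (fold 6.10, SE 0.41), and its relative Parp9 from 69 and 90 to 1736 and 1329 (fold 4.25, SE 0.28), both with an adjusted p of 7.97e-08. Isg15, a ubiquitin-like modifier named after its values were seen, rose from 14 and 20 to 602 and 574 (fold 5.05, SE 0.53, adjusted p = 9.27e-06). The list was not uniform: Ifit2 stood at 58 and 27 and then at 93 and 71 (fold 1.02, adjusted p = 0.302), and Ifi27 at 42 and 55 and then at 120 and 156 (fold 1.49, adjusted p = 0.0667). Ifitm1 and Isg20 were the other 2 not called. Oas1a and Oas1g, and Ifit3 and Ifit3b, are near-identical pairs among which reads could be split, so their separate values are uncertain.

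Interferon-induced GTPases, which act on the membranes around intracellular pathogens, had the largest folds of any list, with 12 of 13 tested called higher and a median of 6.995. Tgtp1 stood at 18 and 17 on day 1 and reached the ceiling of 21544 in both day 3 libraries. Its fold of 10.19 (SE 0.90, limma adjusted p = 2.86e-06) is limited by that ceiling. Tgtp2, a near-identical neighbour of Tgtp1, was listed at 0 in both day 1 libraries and stood at 1131 and 2474 on day 3, and reads could be split between them. Gbp2, a guanylate-binding protein, rose from 27 and 41 to 7733 and 11676 (fold 8.11, SE 1.04, adjusted p = 0.000119). Igtp (Irgm3), a regulator of this GTPase family, rose from 10 and 7 to 2310 and 5024 (fold 8.51, SE 1.04, adjusted p = 8.6e-05). Irgm1, another regulator, started higher, at 180 and 167, and stood at 6930 in both day 3 libraries (fold 5.31, SE 0.55, adjusted p = 1.27e-05). Gvin1 was the 1 member not called, listed at 0 in a library of each day. Spread between replicates was wider here than for the antiviral effectors named above: in Gbp4, at 3 and 1 and then 284 and 814, and in Igtp the 2 day 3 libraries differed by more than 2-fold, replicate 2 being the higher.

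Genes of antigen presentation on MHC class I rose in 17 of 19 tested, with a median fold of 3.55. The immunoproteasome genes Psmb8, at 5 and 4 and then 505 and 1128, and Psmb9, at 2 and 3 and then 303 and 515, encode proteasome subunits that favour peptides for presentation. They rose by 7.11 (SE 1.10, limma adjusted p = 0.000635) and 6.84 (SE 1.15, adjusted p = 0.00113). Nlrc5, the transactivator of MHC class I genes, went from 4 and 7 to 644 and 908 (fold 6.92, SE 1.09, adjusted p = 0.000718). Tap1, a subunit of the peptide transporter, went from 34 and 41 to 1608 and 1821 (fold 5.48, SE 0.62), and Tapbp, which bridges it to the heavy chain, from 201 and 239 to 2465 and 2709 (fold 3.55, SE 0.34). B2m, the light chain named after its values were seen, was already at 1769 and 1502 on day 1 and stood at 8981 in both day 3 libraries (fold 2.46, SE 0.37, adjusted p = 0.000353). H2-K1, a heavy chain gene also named afterwards, went from 297 and 341 to 1901 and 5023, and its call was lost without day 3 replicate 2 (adjusted p = 0.0699). H2 genes are close relatives, and reads could be split among them. Tapbpl and H2-M3 were not called.

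In all, 66 of the 77 tested genes of these 4 lists were called higher and none lower, with a median fold of 3.84, against 3.98% called higher and a median of -0.04 over all genes. Of the 77, 16 met the rule on low values only through day 3. Leaving out each of the 4 libraries in turn gave 59 to 62 calls. Of the 12 largest increases named by rule, Ifi47, a GTPase gene, and Apol9b were outside these lists. Apol9b, an apolipoprotein L family member with a near-identical neighbour, Apol9a, went from 1 and 1 to 512 and 419 (fold 7.86, SE 0.50, limma adjusted p = 6.63e-08). Of the genes called higher, 154 of 526 (29.3%) had another gene called higher within 200 kb. Of those called lower, 57 of 446 (12.8%) had another called lower within that distance. No share for gene sets of equal size from all compared genes stands beside these counts. The sets differ in size, and some neighbours are close relatives among which reads could be split. Whether called genes lie closer together than other genes was not tested, so these shares are a description. The longest run, chr11:48861968-49135387, held 9 genes from Irgm1 to Ifi47, among them Tgtp1 and Tgtp2. Other runs held Tapbp, H2-K1, Psmb9, Tap1, Psmb8 and Tap2 (chr17:33915899-34216321), Gbp7, Gbp3, Gbp2b and Gbp2 (chr3:142530342-142638008), Oas2, Oas3, Oas1g and Oas1a (chr5:120730333-120907521) and Psme1, Psme2, Irf9 and Rec8 (chr14:55578123-55625395). Further runs held H2-D1, H2-Q4, H2-Q6, H2-Q7 and 2300002M23Rik (chr17), Gbp8, Gbp9, Gbp4 and Gm43302 (chr5), and Ly6e, Ly6a, Ly6c1 and Ly6c2 (chr15). Slc7a3, Foxo4, Gm21986, Nlgn3 and Gjb1 formed a run on chrX. Among genes called lower, Amy2a5, Amy2a4, Amy2a3 and Amy2a2 formed a run on chr3.

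Markers of blood and macrophages, cells that produce or answer interferon, held no calls. None of 9 tested passed in either direction, against 7.36% of all genes called, a share at which a list this small holds few calls. Nothing is read from this zero, and the part of such cells in the rise was not tested. The summed value of the 20 listed markers was 689 and 316 on day 1 and 583 and 334 on day 3. Of the 20, 3 and 8 and then 2 and 8 were listed at 0. Lyz2, a macrophage lysozyme, stood at 253 and 18 and then at 140 and 18, and Csf1r, the macrophage growth factor receptor, at 16 and 2 and then at 13 and 1. In both genes replicate 1 was the higher library on each day. Tyrobp, an adaptor of immune receptors, was at 5 and 0 and then at 1 and 0.

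**Figure D2:**
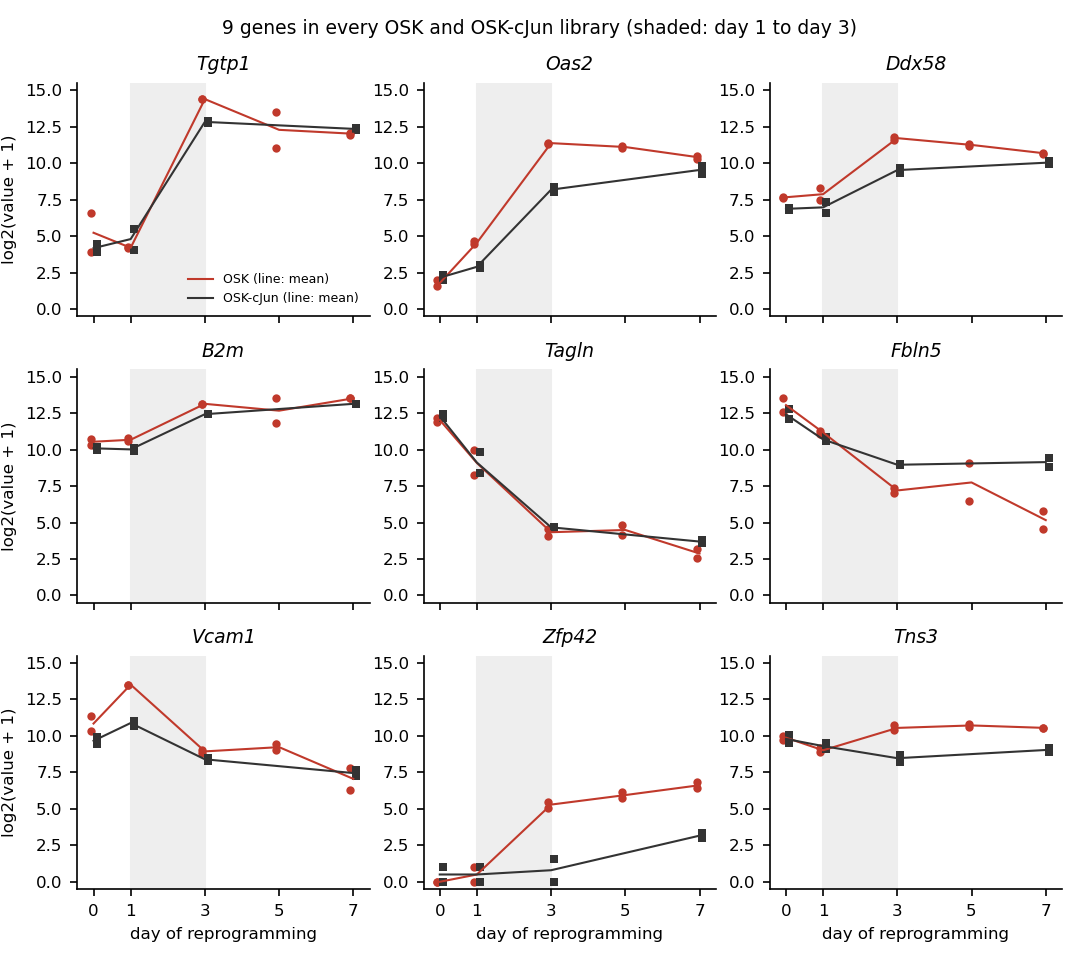
Values of 9 genes in every library, as log2(value + 1) against the day of reprogramming, for OSK (red circles) and OSK-cJun (black squares, no day 5), with lines through the means and the day 1 to day 3 step shaded. Tgtp1, Oas2, Ddx58 and B2m were higher at day 3 than at day 1 in both courses, while Zfp42 and Tns3 were called higher in OSK only.

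Contractile genes of smooth muscle type, which fibroblasts in culture express, fell in 7 of 17 tested, and 1 rose, with a median fold of -1.53. Of all genes 3.38% were called lower and 3.98% higher. Tagln, an actin-binding protein, stood at 981 and 298 on day 1 and at 23 and 16 on day 3. Both day 1 values lay far above both day 3 values although they differed from each other, and the gene fell by 4.75 on the log2 scale (SE 0.64, limma adjusted p = 0.000171). Myl9, a myosin light chain, went from 145 and 61 to 5 and 3 (fold -4.28, SE 0.76, adjusted p = 0.00171), and Tpm2, a tropomyosin, from 693 and 363 to 83 and 29 (fold -3.32, SE 0.51, adjusted p = 0.000544). Cnn2, a calponin whose promoter is shown above, went from 787 and 519 to 264 and 184 (fold -1.53, adjusted p = 0.00319), a call lost without day 1 replicate 1 or day 3 replicate 2. Acta2, the smooth muscle actin, stood at 2260 and 823 and then at 310 and 232 and was not called (adjusted p = 0.117). The member that rose was Synpo2, an actin-bundling protein, from 7 and 6 to 99 and 58 (fold 3.36, SE 0.49, adjusted p = 0.000295). Without day 1 replicate 1 the list held 4 genes called lower.

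Matrix genes fell in 25 of 75 tested, and none rose: 7 of 22 collagens, 10 of 26 glycoproteins and proteoglycans and 8 of 27 genes of crosslinking and turnover. The median fold of the 75 was -1.304, and of all genes 3.38% were called lower. Fbln5, an elastic fibre protein, stood at 2469 and 2151 on day 1 and at 161 and 132 on day 3 (fold -3.97, SE 0.61, limma adjusted p = 0.000572). Vcan, a large proteoglycan, went from 5040 and 2950 to 772 and 576 (fold -2.53, SE 0.36, adjusted p = 0.000234). Col5a1 went from 1400 and 1188 to 298 and 273 (fold -2.17, SE 0.38, adjusted p = 0.0015) and Col11a1 from 1244 and 1439 to 442 and 264 (fold -1.97, SE 0.26, adjusted p = 0.000108), both chains of fibrillar collagens. Loxl2, a collagen crosslinking enzyme, went from 1827 and 1736 to 319 and 240 (fold -2.68, SE 0.46, adjusted p = 0.00127). In each of these genes the 2 days were separated by more than the replicates. The fall was not shared by the whole class: Col1a2 was at the ceiling in all 4 libraries, Fn1 (fibronectin) stood at 11673 in both day 1 libraries and at 21544 and 11673 on day 3, and the basement membrane chain Col4a1 stood at 3415 and 3777 and then at 6129 and 6935, a fold of 0.86 that missed the size rule. Col1a1 stood at 5488 in both day 1 libraries and at 1001 and 720 on day 3, with an adjusted p of 0.0697. The count of 25 was 9 without day 1 replicate 1, 15 without day 1 replicate 2, 14 without day 3 replicate 1 and 10 without day 3 replicate 2.

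Fibroblast markers, in a list called fibroblast surface that also holds the intracellular protein S100a4, fell in 6 of 22 tested and rose in 2. Over all genes 3.38% were called lower and 3.98% higher. Vcam1, a cell adhesion molecule, stood at 11662 in both day 1 libraries and at 516 and 462 on day 3. The replicates lay close together, and the gene fell by 4.58 (SE 0.41, limma adjusted p = 2.64e-06) from day 1 values that were above those of day 0, 2614 and 1291. S100a4, a calcium-binding protein long used to mark fibroblasts, went from 911 and 445 to 67 and 45 (fold -3.51, SE 0.63, adjusted p = 0.0021), and Cdh11, a mesenchymal cadherin, from 1821 and 1941 to 483 and 623 (fold -1.78, SE 0.35, adjusted p = 0.00334). Nt5e (CD73), an ecto-enzyme, rose from 609 and 865 to 4616 and 3611 (fold 2.49, SE 0.37, adjusted p = 0.000353). Thy1, at 416 and 114 and then 37 and 16, did not pass the test (adjusted p = 0.0626), nor did Vim, at the ceiling in 3 of the 4 libraries. Prrx1, a mesenchymal transcription factor, stood at 2949 and 2414 and then at 1799 and 1038 (adjusted p = 0.586). Without day 3 replicate 2 the list held 3 genes called lower. Among regulators of mesenchymal identity 2 of 20 fell and 1 rose, against 3.38% and 3.98% of all genes, and each of the 3 calls was lost without at least 1 library. Runx2, an osteoblast factor, went from 216 and 193 to 44 and 40 (fold -2.26, SE 0.46, adjusted p = 0.00497), a call lost without day 1 replicate 1. Zeb1, a repressor of epithelial genes, stood at 218 and 201 and then at 236 and 171 and was not called.

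The largest decreases outside these lists, named by rule, were of varied function. Fxyd5, a regulator of the sodium pump and of cell adhesion, went from 656 and 403 to 17 and 18 (fold -4.80, SE 0.77, limma adjusted p = 0.00082). Epha1, an ephrin receptor, went from 474 and 281 to 23 and 8 (fold -4.64, SE 0.84, adjusted p = 0.00218), and Slc38a4, an amino acid transporter, from 290 and 213 to 17 and 12 (fold -4.03, SE 0.63, adjusted p = 0.000638). In all 3 both day 3 libraries lay far below both day 1 libraries. Flt1, a receptor of vascular growth factors, went from 217 and 133 to 7 and 16 (fold -3.87, SE 0.54, adjusted p = 0.000185). The 14 endothelial markers it belongs to summed to 724 and 510 on day 1 and to 465 and 461 on day 3, with 2 of 5 tested called lower, the other being Emcn, whose call was lost without day 1 replicate 1 or either day 3 replicate, and their part in the decreases was not tested. Igfbp7, a secreted binding protein, went from 435 and 254 to 38 and 14 (fold -3.79, SE 0.54, adjusted p = 0.000252). Rgs5, a regulator of G protein signalling, stood at 1256 and 771 on day 1 and at 96 and 42 on day 3 (fold -3.93, adjusted p = 0.0102). Its call was lost without day 1 replicate 1 or day 3 replicate 2.

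Of the delivered factors, Pou5f1 stood at the ceiling of 21544 in all 4 libraries, Sox2 at 6923 and 8974 and then at 8974 in both, and Klf4 at 11663 in both and then at 11663 and 11662. None was called, and the values may sum the delivered and the resident genes. Near the top of this scale the steps are coarse, so a change at that level could go unseen. Myc, at 372 and 249 and then 152 and 179, Jun, at 468 and 340 and then 536 and 425, and Sap30, at 83 and 80 and then 93 and 140, were not called either.

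Genes of the pluripotency network rose in 11 of 24 tested, and none was called lower, against 3.98% and 3.38% of all genes. Their median fold was 1.30. Of the 24, 4 met the rule on low values only through day 3 and so could only rise, Zfp42 and Gdf3 among them. Zfp42 (Rex1), a marker of naive pluripotency, was at 0 and 1 on day 1 and at 33 and 44 on day 3, far below 1634 and 1567 in ESC. Both day 3 libraries lay above both of day 1, a fold of 4.79 (SE 0.52, limma adjusted p = 1.65e-05). Tet2, a dioxygenase that oxidises methylcytosine, went from 567 and 851 to 2414 and 2198, above its ESC values of 906 and 742 (fold 1.73, SE 0.31, adjusted p = 0.00173). Tdh, the threonine dehydrogenase of mouse ESC, went from 22 and 45 to 357 and 444 (fold 3.62, SE 0.61, adjusted p = 0.000983), Gdf3, a TGF-beta family ligand, from 3 and 0 to 39 and 26 (fold 4.04, SE 0.66, adjusted p = 0.00082). L1td1, which binds RNA, went from 277 and 335 to 866 and 1010 (fold 1.62, SE 0.30, adjusted p = 0.00213). These 5 calls were kept without each library in turn. Among the others called were the transcription factor genes Tfcp2l1 and Nr0b1 and the phosphatase gene Alpl. Nr0b1, at 9 and 23 and then 183 and 73, lost its call without either replicate 1 (adjusted p up to 0.201). Tfcp2l1, at 26 and 45 and then 764 and 683, lost its call without day 1 replicate 1 or either day 3 replicate, and Alpl, at 16 and 11 and then 423 and 461, without any 1 of the 4. The core genes Nanog (0 and 1, then 2 and 1) and Esrrb (2 and 0, then 0 and 0) did not meet the rule on low values, nor did Dppa5a and Utf1, and of 45 listed genes 21 did not. The count of 11 was 6 without day 1 replicate 1, 5 without day 3 replicate 1 and 7 without day 3 replicate 2.

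Epithelial genes rose in 9 of 28 tested, and none was called lower, against 3.98% and 3.38% of all genes. Their folds ran from -1.59 to 4.57. Keratins, intermediate filaments of epithelia listed apart, were not called in any of 6 tested, 5 with negative folds and a median of -1.47. With 7.36% of all genes called, nothing is read from a zero in a list this small. Of the 28, 6 met the rule on low values only through day 3 and so could only rise, Elf3 among them. Elf3, an epithelial transcription factor, stood at 2 in both day 1 libraries and at 65 and 76 on day 3. The replicates were close and the days did not overlap (fold 4.57, SE 0.33, limma adjusted p = 2.44e-07). Epcam, an epithelial adhesion molecule, went from 13 and 20 to 58 and 189 (fold 2.63, SE 0.63, adjusted p = 0.0149) and Ocln (occludin), of tight junctions, from 7 and 11 to 51 and 22 (fold 1.82, SE 0.48, adjusted p = 0.0245). Both calls were lost without day 1 replicate 1, Epcam also without day 3 replicate 2 and Ocln without day 3 replicate 1. Cdh1 (E-cadherin), at 22 and 112 and then 165 and 585, separated the days but was not called (adjusted p = 0.0775), replicate 2 being the higher on each day. The count of 9 was 2 without day 1 replicate 1 and 3 without either day 3 replicate. The keratinocyte markers listed summed to 1212 and 2311 on day 1 and to 2365 and 3005 on day 3, with Trp63 the 1 called of 6 tested, a call lost without day 1 replicate 2 or day 3 replicate 1 (adjusted p = 0.0905 and 0.114), and their part in the epithelial counts was not tested.

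Measured against the end points, most genes high in ESC and most genes high in MEF were not called, and those called went mostly up in ESC-high genes and down in MEF-high genes. Of 525 compared genes at least 3 log2 units higher in ESC than in MEF, 103 were called higher (19.6%, against 3.98% of all genes) and 3 lower. Of 1253 at least 3 log2 units higher in MEF, 199 were called lower (15.9%, against 3.38%) and 34 higher. Their median folds were 0.62 and -0.56. Of all genes fitted, 1266 were ESC-high and 1526 MEF-high by this measure, so the rule on low values left out most ESC-high genes. Those that met it only through day 3 could only rise, and those that met it only through day 1 could only fall. The mean log2(value + 1) of the 525 ESC-high genes was 4.78 and 4.89 in the day 1 libraries, 5.68 and 5.85 on day 3 and 7.57 and 7.59 in ESC. That of the 1253 MEF-high genes was 6.83 and 6.62 on day 1, 6.27 and 6.07 on day 3 and 2.36 and 2.51 in ESC. Outside both classes lay 389 of the 526 genes called higher (74%) and 244 of the 446 called lower (54.7%), against 86.5% of all genes compared. A day 3 mean at least 1 log2 unit above both ESC and MEF was held by 338 genes called higher (64.3%) and by 11% of all genes. A mean as far below both was held by 61 genes called lower (13.7%) and by 3.72% of all. The day 3 values enter both the call and these counts, so the shares are a description. The 103 calls were 54 without day 1 replicate 1, 63 without day 3 replicate 1 and 59 without day 3 replicate 2, and the 199 were 66, 111 and 82, and 121 without day 1 replicate 2.

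**Figure D3:**
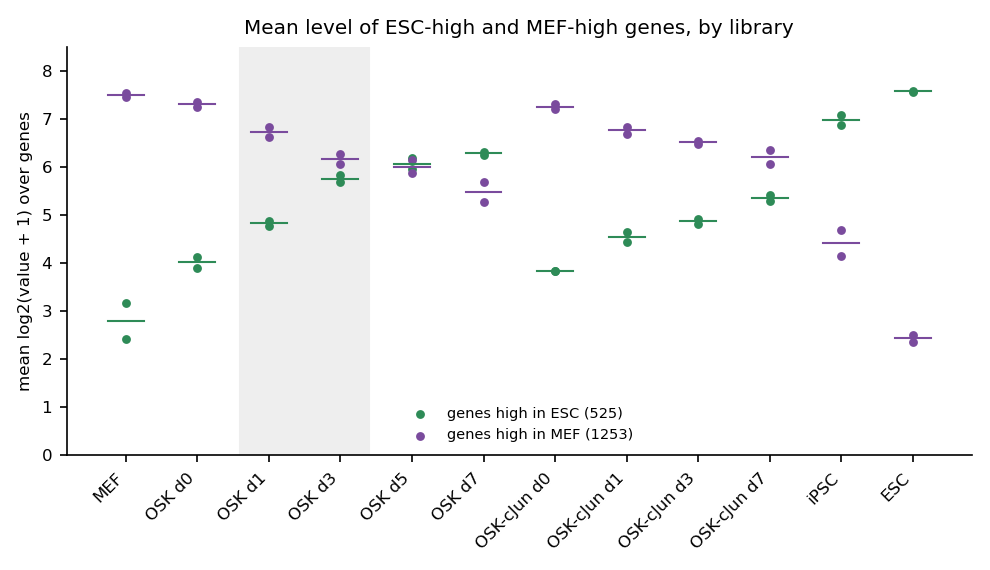
Mean log2(value + 1) over the 525 compared genes high in ESC (green) and the 1253 high in MEF (purple), with a point for each library, a bar for the mean of each group and OSK day 1 and day 3 shaded. The rule on low values in the OSK day 1 and day 3 libraries kept these of 1266 and 1526 such genes fitted. From day 1 to day 3 the green points moved from 4.78 and 4.89 to 5.68 and 5.85, and the purple points from 6.83 and 6.62 to 6.27 and 6.07.

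Many cell functions showed no or few calls. None of 20 mitosis genes, 20 p53 and senescence genes, 24 respiratory chain genes, 29 Hox genes, 19 ribosome biogenesis genes, 16 Sin3 complex genes or 17 BAF remodelling genes was called in either direction. Their median folds lay between -0.20 and 0.33. Over all genes 7.36% were called, a share at which lists this small hold few calls, so nothing is read from these zeros. Mki67, a proliferation marker, stood at 3159 and 1863 and then at 4312 and 2411, and Cdkn1a (p21), an inhibitor of the cell cycle, at 1904 and 2152 and then at 2125 and 2076, with overlap between days in both. Among replication genes 1 of 22 rose, near the 3.98% of all genes: E2f2, a cell cycle transcription factor, from 23 and 30 to 89 and 111 (fold 1.88, SE 0.31, limma adjusted p = 0.000893). Gapdh was the 1 call in the glycolysis list, but it was at the ceiling in both day 1 libraries and at 7721 and 8981 on day 3, and its call was lost without any 1 of the 4 libraries.

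**Figure D4:**
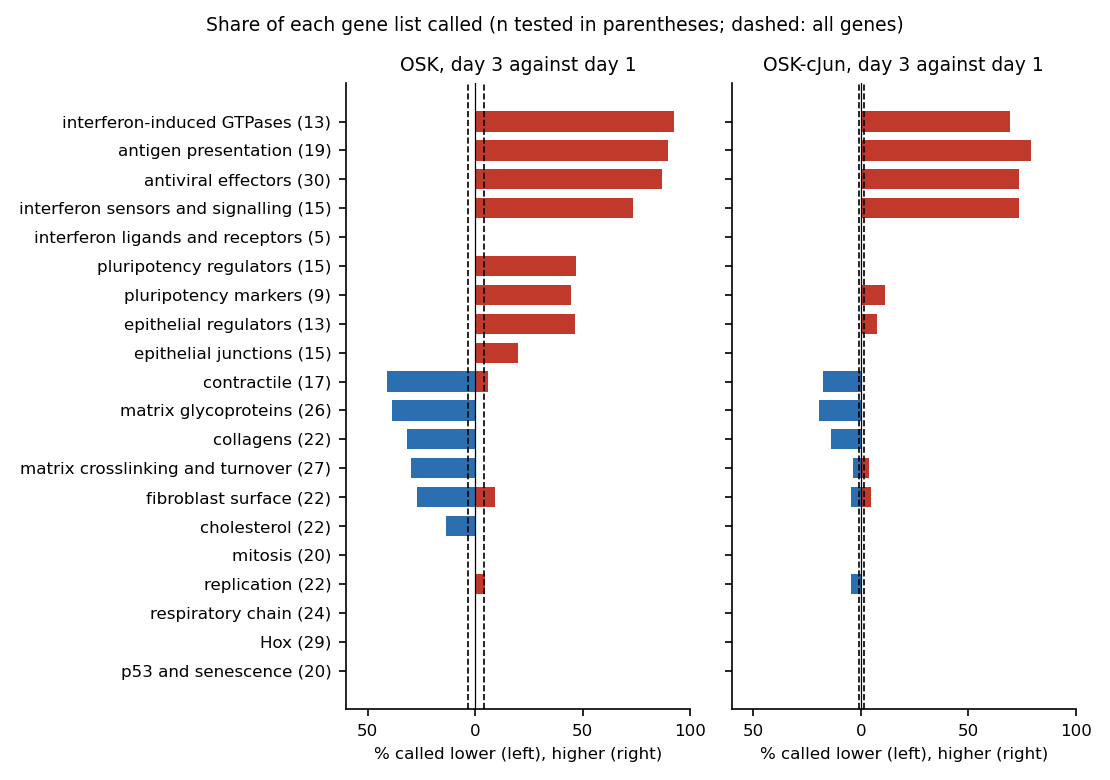
Percent of the tested genes of 20 lists called lower (blue, to the left) or higher (red, to the right) at day 3 against day 1, in OSK and in OSK-cJun, with the number tested in parentheses and dashed lines at the percent called over all 13208 genes. The 4 interferon and antigen presentation lists extend to the right in both panels. Pluripotency genes called higher number 11 in OSK and 1 in OSK-cJun, and epithelial genes 9 and 1. The genes were kept by their values in the OSK libraries alone, which can favour calls in OSK.

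The same step with Jun, the AP-1 transcription factor, added to the factors shares no library with the OSK step. The 13208 genes were kept by their values in the OSK day 1 and day 3 libraries alone. Those that met the rule only through OSK day 1 or only through OSK day 3 can favour calls in OSK. The shares and list counts below are therefore a description and not a comparison with OSK. In OSK-cJun 269 of the 13208 genes (2.04%) were called between day 3 and day 1, 185 higher (1.4%) and 84 lower (0.636%). Interferon and antigen presentation genes rose there as well, in 57 of 77, with a median fold of 3.49. Oas2 stood at 7 and 6 and then at 325 and 261 (fold 5.29, SE 0.24, limma adjusted p = 5.37e-10), and the difference between the 2 steps, 1.54 (SE 0.34), did not pass (adjusted p = 0.123). None of the 77 was called in the test of the difference, and 8 had an unadjusted p below 0.05. Of the matrix genes 9 of 75 fell and 1 rose in OSK-cJun, of the pluripotency genes 1 of 24 rose and of the epithelial genes 1 of 28. These counts were not by themselves a test of a difference, and in the test of the difference Zfp42 alone of these 3 classes was called. Zfp42 met the rule on low values only through OSK day 3, so its OSK fold could only be a rise. Its OSK day 1 and OSK-cJun day 1 and day 3 values lay between 0 and 2. The ESC-high genes were called higher in 23 of 525 and the MEF-high genes lower in 37 of 1253.

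The fold from day 1 to day 3 was called different between OSK and OSK-cJun in 4 genes, 3 with a larger fold in OSK (0.0227%) and 1 with a smaller one (0.00757%), and 797 genes had an unadjusted p below 0.05. Tns3, a tensin of focal adhesions, went from 467 and 568 to 1329 and 1676 in OSK and from 716 and 552 to 300 and 416 in OSK-cJun. The libraries of day 3 were thus above those of day 1 in OSK and below them in OSK-cJun, and the steps differed by 2.36 (SE 0.33, limma adjusted p = 0.0241). Carmil1, a regulator of actin capping, went from 56 and 44 to 368 and 318 in OSK and from 72 and 51 to 37 and 39 in OSK-cJun, a difference of 3.42 (adjusted p = 0.0288). Zfp42, named here although its level was below that of the naming rule, stood at 0 and 1 on day 1 and 0 and 2 on day 3 in OSK-cJun, a difference of 4.50 (SE 0.74, adjusted p = 0.0454). Myof, a membrane repair protein, went from 4013 and 3154 to 827 and 554 in OSK and from 4616 and 5023 to 3773 and 4013 in OSK-cJun, a difference of -2.08 (adjusted p = 0.0288). Each of the 4 calls was lost in some runs with 1 library left out, which leave 1 library in a group. Across the 8 runs the difference stayed between 2.13 and 2.60 in Tns3 and between 3.18 and 3.665 in Carmil1. It stayed between -2.37 and -1.80 in Myof and between 3.70 and 5.29 in Zfp42. Of the 8 left out in turn, the loss of 4 ended the call of Tns3 (OSK day 1 replicate 1, OSK day 3 replicate 2 and replicate 1 of each OSK-cJun day). The same 4 and OSK-cJun day 3 replicate 2 ended that of Myof. The call of Zfp42 ended without 6 of the 8, all but OSK day 1 replicate 2 and OSK-cJun day 3 replicate 2, and that of Carmil1 without 7, all but OSK-cJun day 1 replicate 2. Jun stood at 6929 and 6123 and then at 7721 and 6929 in OSK-cJun, against 468 and 340 and then 536 and 425 in OSK.

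**Figure D5:**
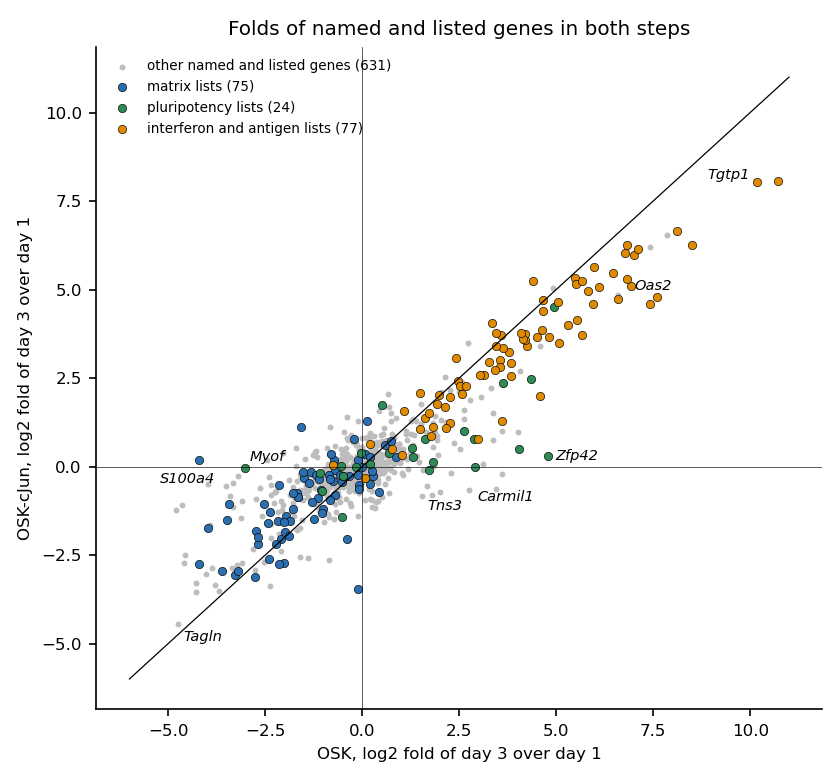
Log2 fold of day 3 over day 1 in OSK (horizontal) and in OSK-cJun (vertical) for 807 named and listed genes, with the line of equal folds; no library is shared between the axes. Interferon and antigen presentation genes (orange, 77) lie high on both axes, most of them below the line. The genes marked by name include the 4 whose folds were called different. All were kept by their values in the OSK libraries alone, which can favour larger folds in OSK.

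Set in the OSK course, the classes that moved from day 1 to day 3 did not all move in the steps before and after, each of which shares 2 libraries with this one. From day 0 to day 1, 494 of the 13208 genes were called higher (3.74%) and 391 lower (2.96%), among them 14 of 17 contractile genes lower, 20 of 75 matrix genes lower, 9 of 28 epithelial genes higher, 5 of 24 pluripotency genes higher and 3 of 77 interferon and antigen presentation genes higher. From day 3 to day 7, 344 were called higher (2.6%) and 666 lower (5.04%), with 1 interferon or antigen gene higher and 5 lower, 11 matrix genes lower, 4 pluripotency genes higher and 9 epithelial genes higher. Tagln was at 4611 and 3771 on day 0 and fell by 2.94 to day 1 (limma adjusted p = 0.00825), and stood at 8 and 5 on day 7. Oas2 was at 2 and 3 on day 0 and rose by 2.76 to day 1 (adjusted p = 4.49e-06), and at day 7 stood at 1456 and 1251. Tgtp1 was at 14 and 94 on day 0 and at 4013 and 4307 on day 7. Day 5 is not read as a time point for these genes, because its libraries differ: Gbp2 stood at 181 and 7733 there and Tgtp1 at 2151 and 11667.

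Genome positions, in GRCm38, of genes the results turn on are as follows, each protein coding. Oas2 (ENSMUSG00000032690) lies at chr5:120730333-120749853 on the minus strand and Tgtp1 (ENSMUSG00000078922) at chr11:48985327-48994172 on the minus strand. Tagln (ENSMUSG00000032085) lies at chr9:45929619-45936058, Vcam1 (ENSMUSG00000027962) at chr3:116109949-116129688, Fbln5 (ENSMUSG00000021186) at chr12:101746565-101819055, Zfp42 (ENSMUSG00000051176) at chr8:43295063-43306980 and Tns3 (ENSMUSG00000020422) at chr11:8431652-8664535, all on the minus strand.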

How the data were processed

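RNA libraries of 26 samples in 13 groups of 2 were prepared with a TruSeq kit, which as labelled does not mark strand, and read on a NextSeq 500 instrument (per the labels' protocols). The tools listed are bcl2fastq, Bowtie2 and RSEM, and the build is mm10, per the submitters' processing notes, which as used here give no versions. The deposited values are a score, normalised by the authors in a way not given in the sources used here: values of the same rank differed by at most 2 between libraries, and library totals ran from 4619641 to 4624161. They are not counts, so depth is unknown and no counting interval is given. A value of 0 is described as listed at 0.

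The design allowed for counts or normalised values, and the test for normalised values was used. With limma 3.58.1 (trend and robust, statmod 1.5.0) in R 4.3.3, log2(value + 1) of the 16038 genes with at least 10 in at least 2 of the 26 libraries was fitted with 1 mean per group. Adjusted p-values (Benjamini-Hochberg) are over 16038 genes, and calls were counted over the 13208 compared genes. Adding 1 understates the folds of low genes. Files were read with pandas 2.3.3, figures drawn with matplotlib 3.10.9 in Python 3.11.15, and the fit was tested on simulated data. Named were the 3 delivered factors, Myc, Jun and Sap30, the 12 largest increases and decreases with a mean of at least 100 and days that did not overlap, up to 5 called genes per list with the smallest p (2 with the highest mean where none was called), and the largest differences between steps; uncalled members and other genes given for contrast were chosen after their values were seen. The genes compared and the lists were chosen with earlier results of these data known. Symbols, positions and promoters came from GRCm38 annotation and RefSeq; Tagln was not matched to a promoter. A few results are not reported here. Alternatives changed the number added before log2, the filter, the genes adjusted over, the libraries setting the spread, the scaling, the limma settings, the replicate number as a block, the call rule and the libraries left out.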

Additional observations from a re-analysis of the deposited data

Results flagged for a closer look

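In 4 genes the OSK and OSK-cJun steps from day 1 to day 3 had unequal folds by a test of the difference itself (limma, adjusted over 16038 genes). For Tns3 the OSK fold of 1.53 (adjusted p = 0.000433) stood against -0.83 (adjusted p = 0.0823) in OSK-cJun, a difference of 2.36. For Carmil1 the folds were 2.76 and -0.66, a difference of 3.42. For Myof they were -2.39 and -0.31, a difference of -2.08. For Zfp42 they were 4.79 and 0.29, a difference of 4.50. Zfp42 met the rule on low values only through OSK day 3, so its OSK fold could only be a rise. The adjusted p of these differences was between 0.0241 and 0.0454, and between 4 and 7 of the 8 libraries, each left out alone, ended each call, with the highest adjusted p then at 0.133 for Tns3, 0.147 for Carmil1, 0.167 for Myof and 0.215 for Zfp42.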

How the results depend on the processing

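No fold of the 143 named genes called at OSK day 3 against day 1 changed sign under any alternative run. The days did not overlap in any called gene, so most of these runs could not have reversed a sign. Nothing is read from the kept signs. Of these 143, between 88 and 117 kept their call without each of the 4 libraries. Left-out libraries gave 273 to 422 genes called higher, 152 to 313 lower, 59 to 62 interferon and antigen genes higher, 9 to 15 matrix, 4 to 8 contractile and 3 to 6 fibroblast surface genes lower, 5 to 8 pluripotency and 2 to 6 epithelial genes higher, 54 to 83 ESC-high genes higher and 66 to 121 MEF-high genes lower. For the difference between the steps they gave 0 to 5 genes with a larger and 0 to 6 with a smaller fold in OSK, with 5 and 6 without OSK-cJun day 1 replicate 2, so which direction held more genes was not stable. With the spread from the compared libraries alone the counts were 311 higher, 236 lower, 15 matrix, 3 contractile, 6 pluripotency, 2 epithelial, 50 ESC-high and 115 MEF-high genes, and 2 genes with a larger and 8 with a smaller fold in OSK, where 455 of 547 calls were shared with those reported. With the limma treat test against a log2 fold of 0.5 they were 288 higher, 162 lower, 12 matrix, 3 fibroblast surface, 7 pluripotency, 2 epithelial, 65 ESC-high and 82 MEF-high genes, and 0 and 0 for the difference. Adding 0.1 before log2 gave 4 pluripotency, 5 epithelial and 63 ESC-high genes. The counts with a larger and a smaller fold in OSK were 34 and 17 when 10 was added, 10 and 2 with no filter, 8 and 2 with p adjusted over the compared genes alone, 10 and 2 with no trend and no robust step, and 26 and 22 with array weights. Why these counts moved was not tested. Deviations of same-numbered day 1 and day 3 libraries correlated at 0.3886 across genes, with only 2 pairs. With the replicate number as a block, 1063 genes were called, 965 of them shared with the 972 reported, and 7 genes had a larger fold in OSK; it ended no call of a named gene. Leaving out genes at 0 or at the ceiling, chosen after seeing the data, gave 879 calls, 871 of them shared. Without the OSK day 5 libraries 1046 genes were called, 952 of them shared. Unknown depth and the ceiling limit what can be said of genes at the top and at 0 of the scale.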

Other observations

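Genes of signalling and metabolism outside the classes above moved in small numbers between OSK day 1 and day 3. Over all genes 3.98% were called higher and 3.38% lower, and nothing is read from the list counts of 1 to 3 given here. Lpl, a lipase of triglyceride uptake, stood at 3617 and 3040 and then at 309 and 313 (fold -3.41, SE 0.37, limma adjusted p = 1.7e-05), having been at 573 and 300 on day 0. Of 22 cholesterol genes 3 fell, among them Msmo1, an enzyme of sterol synthesis, from 1079 and 1103 to 361 and 430 (fold -1.47, SE 0.19, adjusted p = 9.07e-05). Of 15 hypoxia-related genes 3 fell and 1 rose, and Adm (adrenomedullin) went from 166 and 83 to 11 and 10 (fold -3.37, SE 0.49, adjusted p = 0.000305). Of 15 genes of the IGF axis 3 fell, Igf1 from 105 and 51 to 10 and 4 (fold -3.32, SE 0.50, adjusted p = 0.00035). In OSK-cJun Igf1 stood at 86 and 86 and then at 56 and 70, and the difference of -2.87 between the steps did not pass (adjusted p = 0.192). Of 12 AP-1 genes 1 fell, Fosl2, from 381 and 347 to 135 and 128 (fold -1.46, SE 0.27, adjusted p = 0.00226). Of 17 WNT-related genes 3 rose and 1 fell. Nkd1, a feedback inhibitor of WNT, went from 5 and 8 to 53 and 147 (fold 3.61, adjusted p = 0.00247), a call lost without day 3 replicate 2.

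Further genes named from the lists had the following values. Trh, the prohormone of thyrotropin-releasing hormone, stood at 25 and 94 on day 1 and at 3769 and 6116 on day 3 (fold 6.59, SE 0.79, limma adjusted p = 7.06e-05). Trh stood at 106 and 771 in ESC and at 27 and 28 at OSK-cJun day 3, and its fold was not called different between the OSK and OSK-cJun steps. It was 1 of 3 genes called higher of 16 in the neuroendocrine list, with Pcsk1n and Penk, and the call of Penk was lost without either day 1 replicate or day 3 replicate 1 (adjusted p up to 0.187). Mbp, a myelin protein, went from 51 and 37 to 201 and 124 (fold 1.84, SE 0.34, adjusted p = 0.00228), while Tubb3 and Map2 of the same neural list were called lower. The call of Tubb3 was lost without either day 1 replicate or day 3 replicate 1 (adjusted p up to 0.158), and that of Map2 without day 1 replicate 1 or day 3 replicate 2 (up to 0.196). Slc7a3, a cationic amino acid transporter, went from 41 and 100 to 952 and 1241 (fold 4.06, SE 0.47, adjusted p = 4.16e-05). Serping1, the C1 inhibitor of complement, went from 73 and 43 to 1651 and 1794 (fold 4.92, SE 0.45, adjusted p = 2.86e-06), and in OSK-cJun from 18 and 10 to 463 and 485. Socs3, the feedback inhibitor of LIF signalling, went from 329 and 226 to 992 and 764 (fold 1.67, SE 0.38, adjusted p = 0.0104), a call lost without day 1 replicate 2 or day 3 replicate 1. Zfp352, a gene of the mouse preimplantation embryo, went from 29 and 32 to 2 and 1 (fold -3.68, adjusted p = 0.00665), a call lost without day 1 replicate 1 or day 3 replicate 2, and in OSK-cJun from 19 and 25 to 1 and 1.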
